A study of Mus musculus with 8 samples.

Results

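The genes described here encode proteins that carry fatty acids and docosahexaenoic acid (DHA) into cells and bind them there. They are *Mfsd2a*, *Cd36*, *Fabp1*, *Fabp2*, *Fabp4*, *Fabp5*, *Fabp7*, *Slc27a2*, *Slc27a4* and *Dbi*, 10 of the 22911 named genes with a probe on the arrays, and they were taken by gene name, with no measured value in the rule. Their RNA was measured in the livers of 10-week-old male C57BL/6 mice, 4 *Agpat3* wild-type (WT) and 4 *Agpat3* knockout (KO), with 1 one-color Agilent array and Cy3 dye per mouse. AGPAT3 is an acyltransferase that places DHA into phospholipids, the KO is global rather than limited to hepatocytes, and the series asks which transcripts change in a liver that lacks it. The labels do not say how the allele was made or whether the mice were littermates or fasted. *Agpat3* itself was 69.7-fold lower in KO liver by its brighter probe, and both of its probes stayed well above background on all 4 KO arrays.

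Long-chain fatty acids enter hepatocytes by diffusion and through membrane proteins. CD36 binds fatty acids and oxidized lipoproteins at the cell surface, the SLC27 or FATP proteins couple uptake to activation with coenzyme A, and MFSD2A is a sodium-dependent transporter of lysophosphatidylcholine that carries DHA across the blood-brain barrier. Inside the cell the small fatty acid-binding proteins (FABPs) hold fatty acids in solution, and DBI, the acyl-CoA-binding protein, holds their activated form. FABP1 is the main FABP of hepatocytes, while FABP2 is known from the intestine, FABP4 from adipocytes, FABP5 from skin and FABP7 from brain.

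All values below are log2 signals on a scale where 0 is the 75th percentile of the probes on that array, and a difference of 1 is a doubling. A probe was tested if all 4 arrays of either genotype showed it well above background. It was called if it changed by over 1.5-fold with an adjusted p under 0.2 (limma, Benjamini-Hochberg over 29069 probes), after the legend of the study's volcano plot. Signals of different probes cannot be set against each other, because each probe binds its target with its own efficiency. All arrays shared 1 slide on which WT filled row 1 and KO row 2, and the effects of row and of genotype cannot be told apart. Between 29888 and 31892 of 56605 probes per array were well above background, no spot was saturated, and the number of arrays limits the precision.

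Of the 10 genes, 3 were called higher in KO liver (*Mfsd2a*, *Fabp5* and *Fabp2*), 0 were called lower, and 7 were not called. Among all 14067 named genes tested, 1.01% were called higher and 0.754% lower, and among the 29069 probes 0.939% and 0.726%. In 4 of the 10 (*Mfsd2a*, *Fabp5*, *Fabp2* and *Cd36*) the lowest KO mouse exceeded the highest WT mouse, and in 0 the reverse held, where 3.84% of all genes were separated upward and 5.89% downward. The 10 log2 fold changes ran from -0.19 to 2.11 with a median of 0.09, beside a median of -0.03 over all genes tested. Their median size without regard to sign was 0.15, against 0.11 over all genes. At the brightest probe all 10 genes were well above background on all 8 arrays, so that none was tested through one genotype alone.

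**Figure D1:**
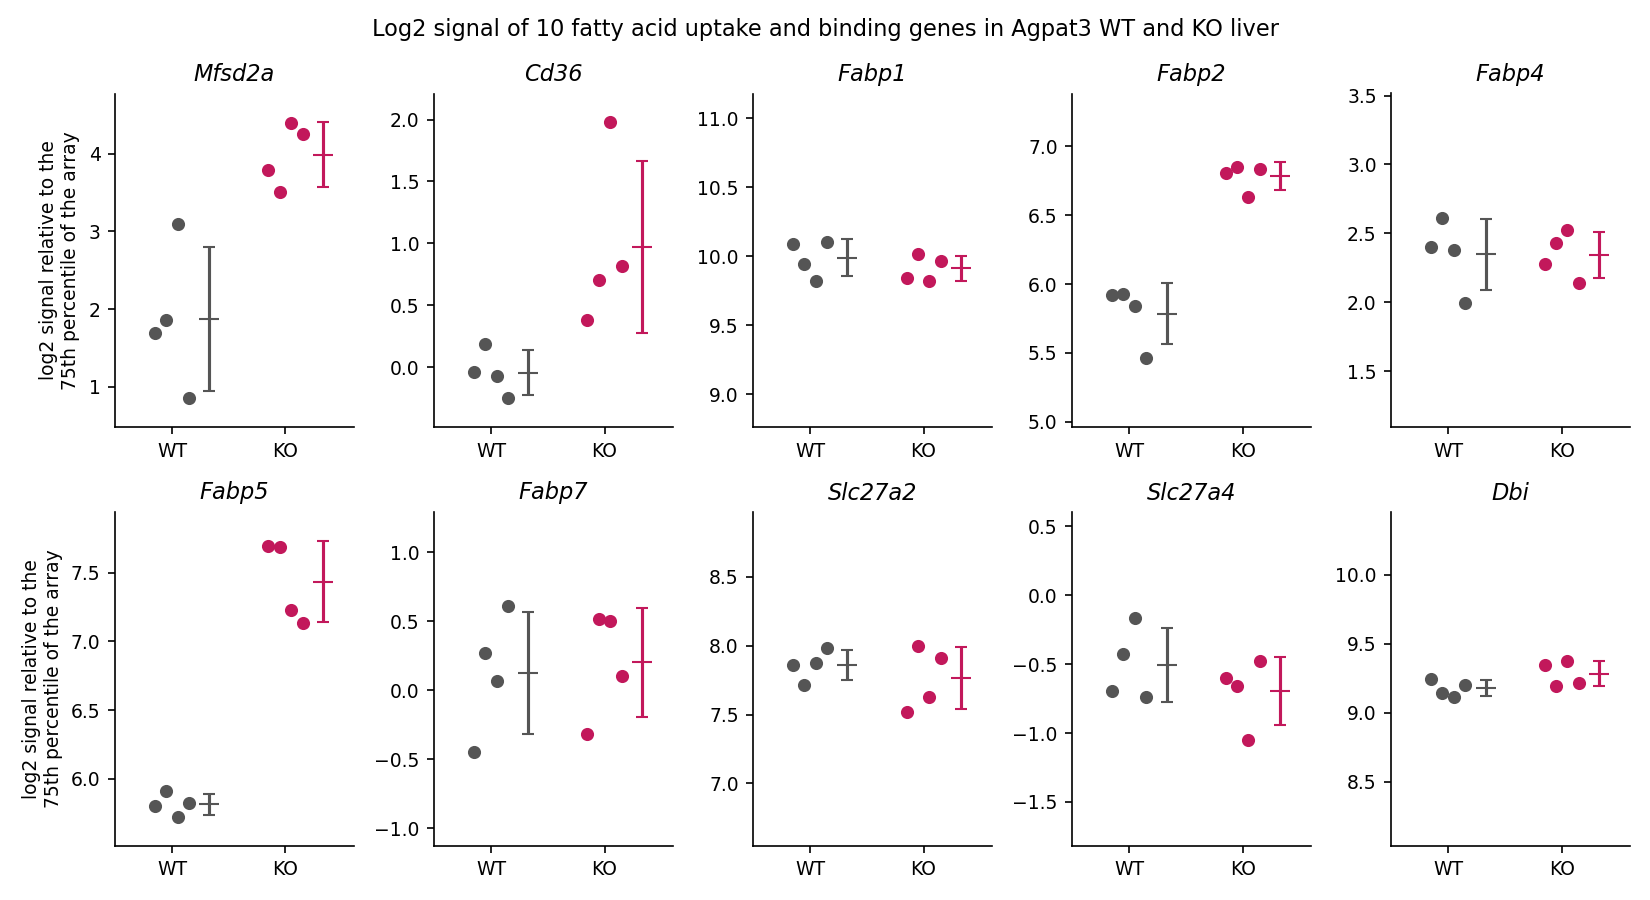
Log2 signal, with 0 at the array's 75th percentile (vertical axis, each panel with its own range) for the brightest probe of each of the 10 genes, with 1 point per mouse (gray, WT; magenta, KO) and the mean ± SD of each genotype (n = 4) beside the points. The genotypes do not overlap in *Mfsd2a*, *Cd36*, *Fabp2* and *Fabp5*, and overlap in the other 6 genes.

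The 250 bases before the transcription start are shown for the genes with separated genotypes and an entry in the RefSeq promoter table of GRCm38.p6. They are shown so that letters of known promoter motifs can be read in them. The window of *Mfsd2a* lies at chr4:122961189-122961438 on the minus strand, *Fabp2* at chr3:122894822-122895071 on the plus strand and *Cd36* at chr5:17835897-17836146 on the minus strand. Each is written 5′ to 3′ in the direction of transcription, and capitals mark the CCAAT box (CCAAT or ATTGG) and the nuclear receptor half-site (AGGTCA or TGACCT). The table held entries for 8 of the 10 genes, and *Fabp4* and *Fabp5* were not among them.
Mfsd2a: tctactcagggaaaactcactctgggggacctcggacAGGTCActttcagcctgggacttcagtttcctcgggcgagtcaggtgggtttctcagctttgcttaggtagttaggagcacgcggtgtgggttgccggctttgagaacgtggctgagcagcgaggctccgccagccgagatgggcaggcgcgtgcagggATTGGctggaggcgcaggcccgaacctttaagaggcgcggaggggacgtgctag
Fabp2: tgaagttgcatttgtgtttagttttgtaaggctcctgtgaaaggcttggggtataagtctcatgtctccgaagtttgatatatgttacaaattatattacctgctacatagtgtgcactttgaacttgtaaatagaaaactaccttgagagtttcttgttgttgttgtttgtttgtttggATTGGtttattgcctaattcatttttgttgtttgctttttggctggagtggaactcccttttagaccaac
Cd36: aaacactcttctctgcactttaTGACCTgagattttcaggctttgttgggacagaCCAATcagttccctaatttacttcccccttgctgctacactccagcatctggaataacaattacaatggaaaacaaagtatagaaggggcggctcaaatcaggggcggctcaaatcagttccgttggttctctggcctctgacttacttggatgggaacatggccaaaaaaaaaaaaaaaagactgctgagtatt

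The *Mfsd2a* promoter held ATTGG at 54 bases and AGGTCA at 213 bases before the start, the *Fabp2* promoter ATTGG at 70 bases, and the *Cd36* promoter CCAAT at 195 bases and TGACCT at 228 bases. Of the 8 promoters, 5 held a CCAAT box on either strand and 5 a half-site, where 33.8% and 14.0% of 32851 promoters of this length did. The half-sites were those of *Cd36*, *Fabp1*, *Fabp7*, *Mfsd2a* and *Slc27a2*, of which *Mfsd2a* was called. Of the 8 promoters, 0 held a direct repeat of 2 half-sites with 1 base between them (AGGTCANAGGTCA, 0.0335% of all promoters), the letters TCACNCCAC of a sterol regulatory element (1.05%) or an E-box (CACGTG, 6.02%). These matches describe the letters in 1 window before 1 listed start, and no match is a site.

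The transporters were *Mfsd2a* and the surface receptor *Cd36*. *Mfsd2a* had 1 probe, with log2 signals of 1.70, 1.86, 3.09 and 0.85 in WT replicates 1 to 4, and of 3.79, 3.50, 4.40 and 4.25 in the KO replicates. The WT mice were widely spread, WT replicate 3 being the highest and WT replicate 4 the lowest, yet the lowest KO mouse lay above all of them. Its mean was 1.88 ± 0.92 in WT and 3.99 ± 0.41 in KO liver (SD, n = 4 each), so that it rose by 2.11 on the log2 scale (standard error [SE] 0.43, limma adjusted p = 0.0973), or 4.32-fold with a 95% confidence interval from 2.17 to 8.61. This was the 13th largest increase among the 14067 genes tested. The spread between mice of the same genotype was larger for *Mfsd2a* than for 98.5% of those genes. The call was lost without WT replicate 2, where the log2 fold change was 2.11 and the limma adjusted p was 0.203, and it was lost when dim probes were not filtered out (limma adjusted p = 0.227).

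*Cd36* also had 1 probe. Its log2 signals were -0.04, 0.19, -0.07 and -0.25 in WT replicates 1 to 4, and 0.38, 0.71, 1.98 and 0.82 in KO replicates 1 to 4. All KO mice were above all WT mice, and KO replicate 3 stood above the other 3 KO mice. The means were -0.04 ± 0.18 and 0.97 ± 0.70 (SD, n = 4 each), a log2 change of 1.01 (SE 0.31), or 2.02-fold with an interval from 1.23 to 3.31. With a limma adjusted p of 0.220, *Cd36* missed the threshold. Without KO replicate 3 the log2 fold change was smaller, 0.68, but the spread was smaller too and *Cd36* was called (limma adjusted p = 0.134). Median spot signals with normexp background correction, which models the background of each array, also led to a call, at 0.94 (limma adjusted p = 0.158). The spot signal and the background method were changed together.

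The fatty acid transport proteins did not pass the test. *Slc27a2* encodes FATP2, a hepatic transporter and very long-chain acyl-CoA synthetase. Its log2 signal lay between 7.72 and 7.98 in WT liver and between 7.52 and 8.0 in KO liver, a log2 change of -0.09 (95% confidence interval -0.37 to 0.18, limma adjusted p = 0.790). *Slc27a4* encodes FATP4, a family member best known from intestine and skin. Its brighter probe lay between -0.74 and -0.17 in WT liver and between -1.05 and -0.47 in KO liver, a log2 change of -0.19 (interval -0.56 to 0.19, limma adjusted p = 0.679). A second *Slc27a4* probe was well above background on 2 WT arrays and 1 KO array and was not tested. Both intervals leave out a change of 1.5-fold in either direction, although a smaller one remains possible.

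Among the FABPs, *Fabp5* changed most. It had 1 probe, with log2 signals of 5.80, 5.91, 5.72 and 5.82 in WT liver, against 7.70, 7.69, 7.23 and 7.13 in KO liver. The WT mice lay close together, and the lowest KO mouse was more than 1 unit above the highest WT mouse. Means were 5.81 ± 0.08 in WT and 7.44 ± 0.30 in KO liver (SD, n = 4 each), and *Fabp5* rose by 1.62 on the log2 scale (SE 0.14, limma adjusted p = 0.00364), which is 3.08-fold with an interval from 2.46 to 3.85. It ranked 29 among the 14067 genes from the largest increase down. Every alternative setting kept the call of *Fabp5*, with log2 fold changes from 1.54 to 1.72. The RefSeq gene table also lists a related locus named *Fabp5l2*, and whether its RNA reaches the *Fabp5* probe was not tested.

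*Fabp2* encodes the FABP of the intestinal epithelium. Its single probe gave 5.92, 5.92, 5.84 and 5.46 in WT liver, against 6.81, 6.85, 6.63 and 6.84 in KO liver. WT replicate 4 was the lowest of the WT mice, and the KO mice lay within a narrow range above all of them. With means of 5.79 ± 0.22 in WT and 6.78 ± 0.10 in KO liver (SD, n = 4 each), *Fabp2* rose by 0.99 on the log2 scale (SE 0.12, limma adjusted p = 0.0152), or 1.99-fold with an interval from 1.66 to 2.40. At a minimum fold change of 2 this narrowly missed, and every other setting tried kept the call.

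The remaining FABPs showed no detectable change. *Fabp1*, the abundant FABP of hepatocytes, gave 10.09, 9.95, 9.82 and 10.10 in WT liver, against 9.84, 10.01, 9.82 and 9.97 in KO liver. Its mean was 9.99 ± 0.13 in WT and 9.91 ± 0.09 in KO liver (SD, n = 4 each), a log2 change of -0.08 (interval -0.28 to 0.12, limma adjusted p = 0.758). The sign of this change turned under 1 or more of the alternatives, whose values ran from -0.13 to 0.04. *Fabp4*, which is typical of adipocytes and macrophages, gave 2.40, 2.61, 2.38 and 2.00 in WT liver, against 2.28, 2.43, 2.52 and 2.14 in KO liver. The log2 fold changes of its 2 probes were -0.0042 and 0.0047, with an interval of -0.33 to 0.32 for the brighter probe. *Fabp7*, the brain type, ranged from -0.45 to 0.61 in WT and from -0.32 to 0.52 in KO liver. Its log2 fold change of 0.07 had an interval of -0.52 to 0.67, which reaches past 1.5-fold upward.

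*Dbi* had 2 probes, and both lay far above background. The brighter probe gave 9.25, 9.15, 9.12 and 9.20 in WT liver, against 9.35, 9.19, 9.37 and 9.22 in KO liver, a log2 change of 0.11 (SE 0.07, limma adjusted p = 0.577). The dimmer probe gave 8.74, 8.63, 8.56 and 8.75 against 8.99, 8.74, 8.95 and 8.81, a log2 change of 0.20 (limma adjusted p = 0.351). In both probes the genotypes overlapped, and KO replicates 1 and 3 were the highest.

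**Figure D2:**
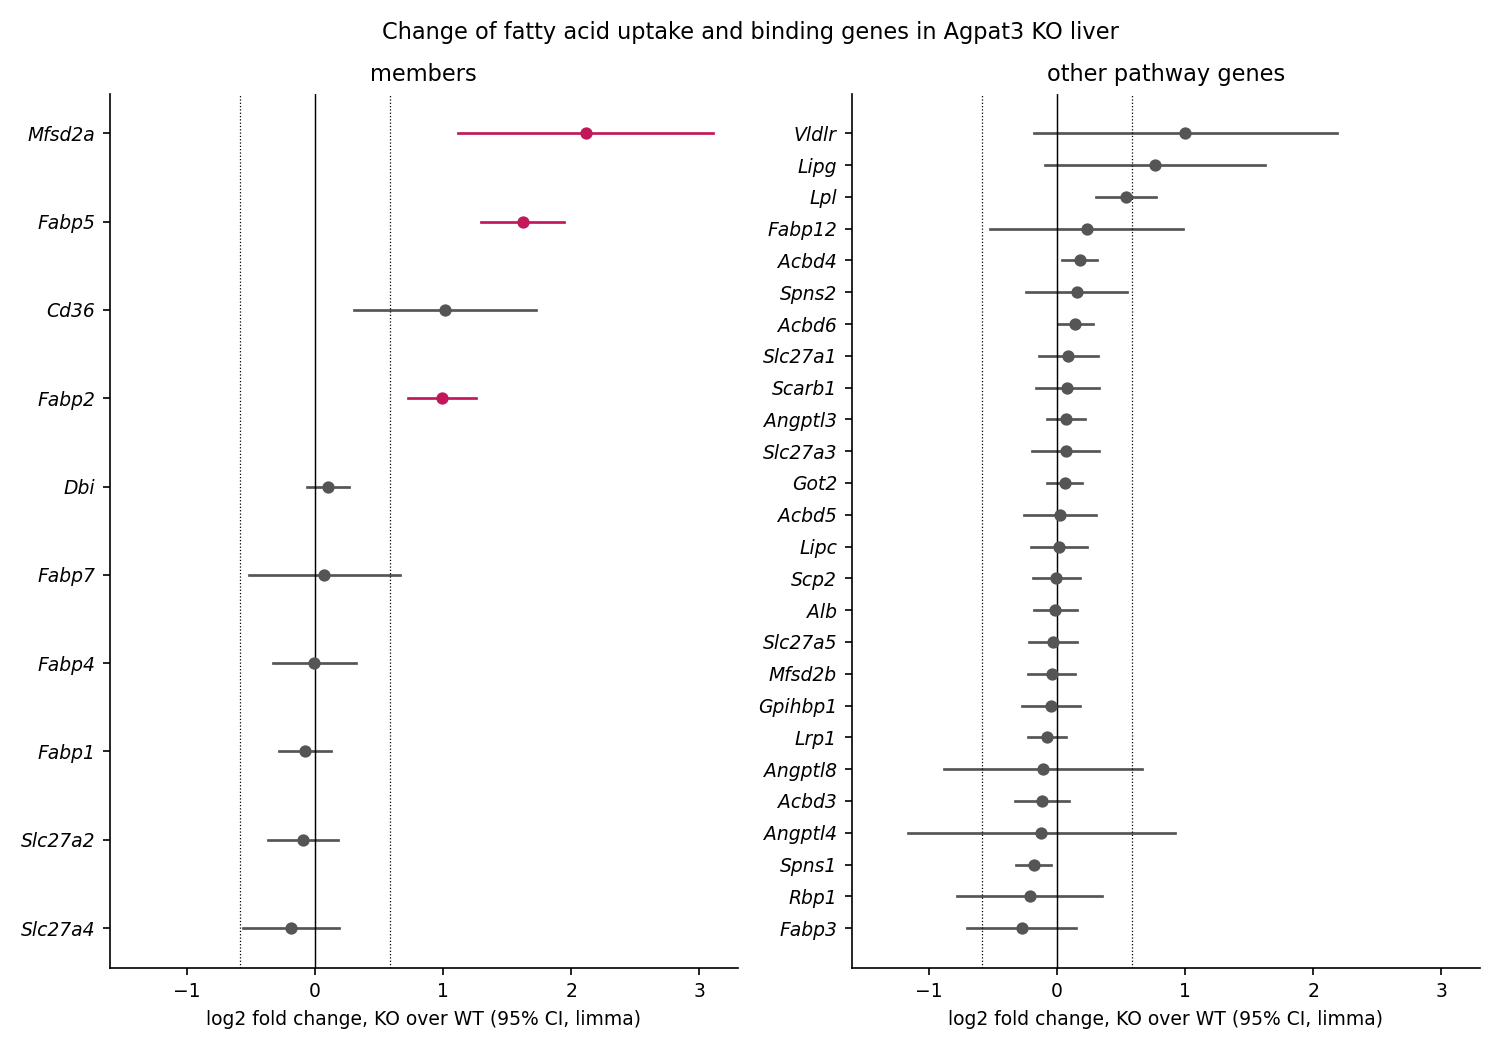
Log2 fold changes of KO over WT (horizontal axis) with 95% confidence intervals from limma for the 10 genes (left) and for 26 other genes of fatty acid uptake and binding that were tested (right), each at its brightest probe. Magenta marks called genes, dotted lines mark a 1.5-fold change, and the intervals of *Mfsd2a*, *Fabp5* and *Fabp2* lie to the right of that line.

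**Figure D3:**
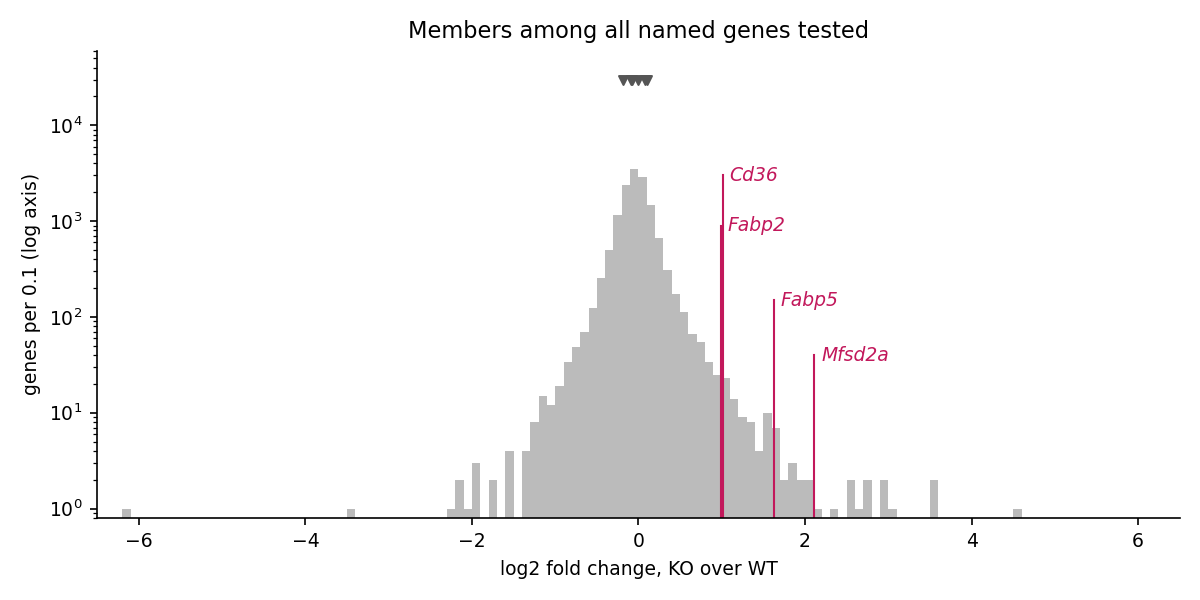
Histogram of log2 fold changes of KO over WT for 14067 named genes at their brightest probe (bins of 0.1, logarithmic vertical axis). Magenta lines mark *Mfsd2a*, *Fabp5*, *Cd36* and *Fabp2*, whose heights carry no meaning, and gray triangles mark the other 6 genes, which lie between -0.19 and 0.11.

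Changes of related genes were also compared within each array, for 3 pairs picked after their values were seen. The increase of *Fabp5* exceeded the change of *Fabp4*, a near neighbor on the same chromosome, by 1.63 on the log2 scale (SE 0.20). The increase of *Fabp2* exceeded the change of *Fabp1* by 1.07 (SE 0.16). *Mfsd2a* differed from *Mfsd2b*, its paralog and a transporter of sphingosine 1-phosphate in blood cells, by 2.15 (SE 0.53). This used the brighter *Mfsd2b* probe, which had a WT mean of 7.96. A dimmer probe of the same transcript had a WT mean of -4.88, was well above background on 0 arrays and was not tested. Which of the 2 probes reports *Mfsd2b* RNA was not tested. In each pair the within-array difference was higher in all 4 KO mice than in all 4 WT mice. No test is given because the pairs were picked for their difference.

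A further list covered lipases and their binding partners, lipoprotein receptors, the other SLC27 genes, *Mfsd2b*, the other FABPs, retinoid-binding relatives and acyl-CoA-binding proteins. It also held *Spns1*, *Spns2*, *Scp2*, *Got2*, *Cav1* and *Alb*, and had 34 genes in all. Of these, 33 (all but *Crabp2*) had a named probe and 26 were tested, and the 7 with a probe below that filter were *Slc27a6*, *Fabp6*, *Fabp9*, *Pmp2*, *Crabp1*, *Acbd7* and *Cav1*. At the brightest probe 0 of the 26 were called in either direction by limma and 0 by an unpaired t test, while 4 had an unadjusted limma p under 0.05, which held for 14% of all 14067 named genes. Their median log2 fold change was 0.02. In 3 genes (*Lpl*, *Acbd4* and *Acbd6*) the KO mice lay wholly above the WT mice and in 1 (*Spns1*) wholly below, beside 3.84% and 5.89% of all genes.

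*Lpl* encodes lipoprotein lipase, which frees fatty acids from circulating triglycerides. Its brightest probe gave 2.51, 2.47, 2.50 and 2.44 in WT liver, against 2.97, 2.97, 3.31 and 2.83 in KO liver. The groups were well apart, but the log2 fold change of 0.54 (SE 0.10, limma adjusted p = 0.0823) is 1.45-fold, under the threshold of 1.5. The other 2 *Lpl* probes were called, at 0.62 (limma adjusted p = 0.0485) and 0.66 (limma adjusted p = 0.103), and the gene was called when its probes were averaged (0.61) or KO replicate 4 was left out (0.60). Its protein is held at the endothelium by GPIHBP1, whose gene had a log2 change of -0.05. *Angptl4*, an inhibitor of the lipase, was low in WT replicate 2 (4.94) and KO replicate 3 (4.97) and lay between 6.00 and 6.77 in the other 6 mice. Its log2 fold change was -0.12 (SE 0.46, limma adjusted p = 0.936).

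**Figure D4:**
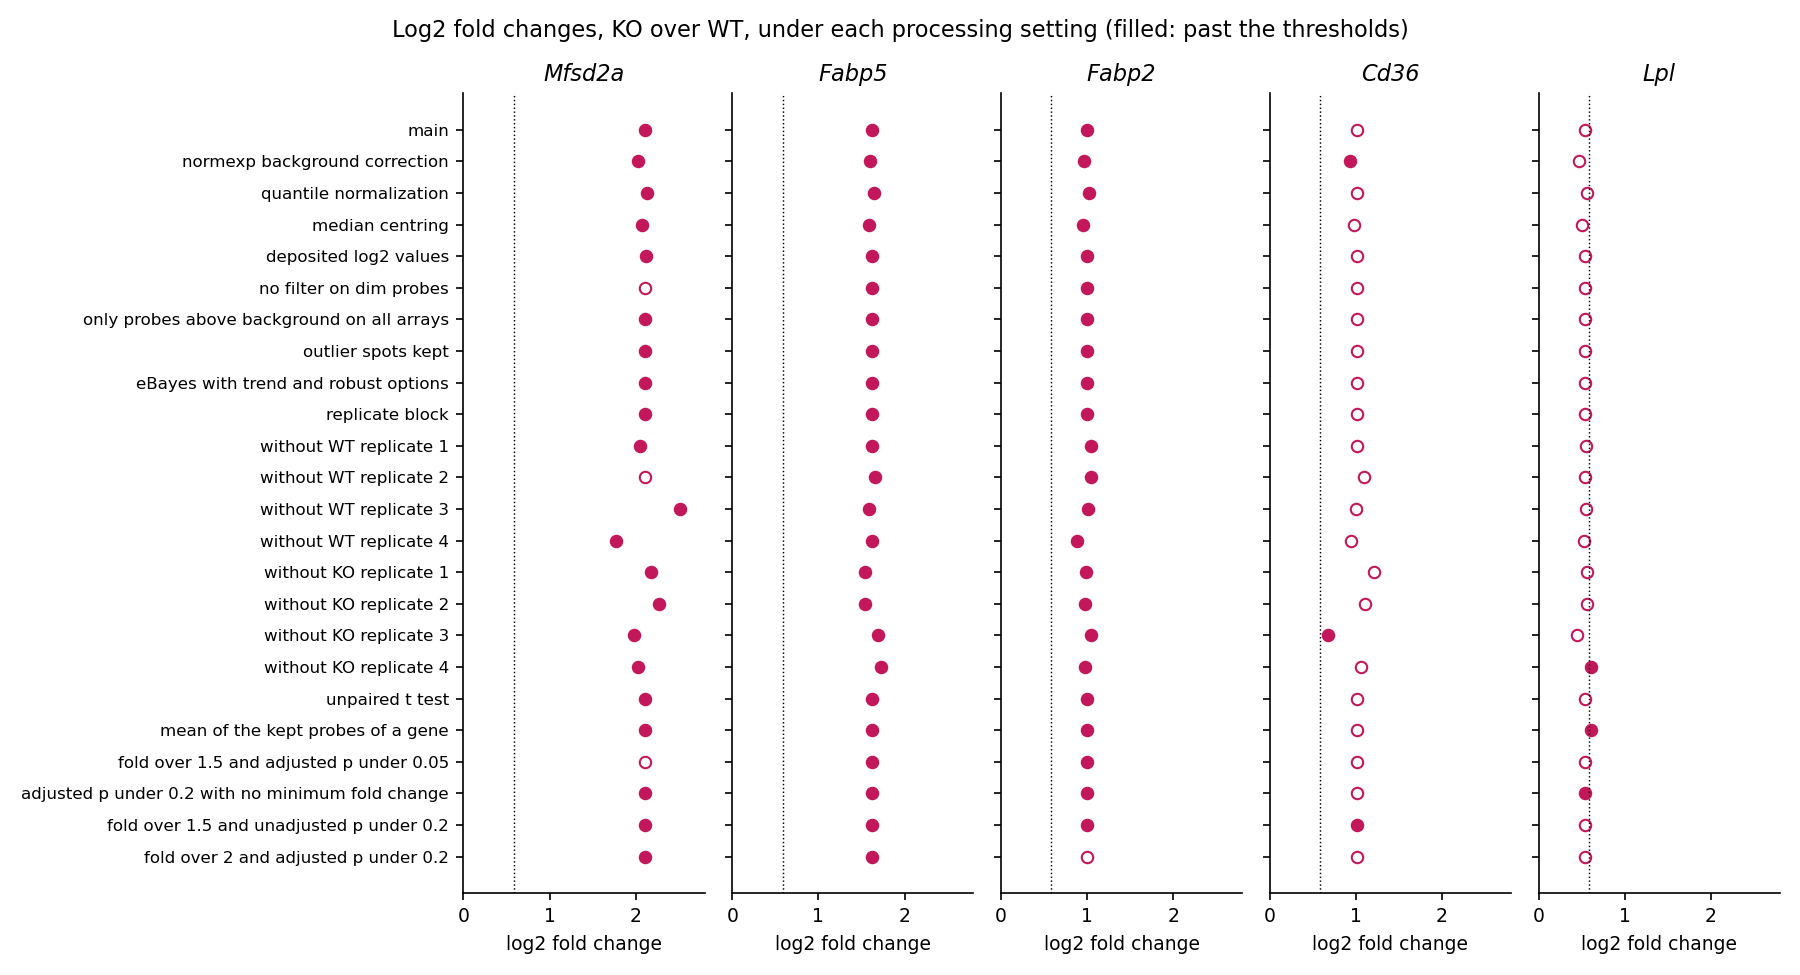
Log2 fold changes of KO over WT (horizontal axes) of *Mfsd2a*, *Fabp5*, *Fabp2*, *Cd36* and *Lpl* under each processing setting (rows), filled where the gene passed the thresholds of that setting, with a dotted line at 1.5-fold. *Fabp5* is filled in every row, and *Cd36* is filled in 3 of the alternatives, with values between 0.68 and 1.01.

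*Vldlr*, the VLDL receptor gene, gave 0.36 in KO replicate 3 and lay between -1.88 and -0.98 in the other KO mice, with -2.94 to -1.43 in the WT mice. Its log2 fold change was 1.00 (SE 0.52, limma adjusted p = 0.456), and 0.55 without that mouse, which was also the highest in *Cd36*, *Mfsd2a* and *Lpl*. The bile acid-linked transporter gene *Slc27a5*, known from liver, had a log2 change of -0.03, and *Scp2*, a sterol and acyl-CoA carrier gene, one of -0.0019.

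**Figure D5:**
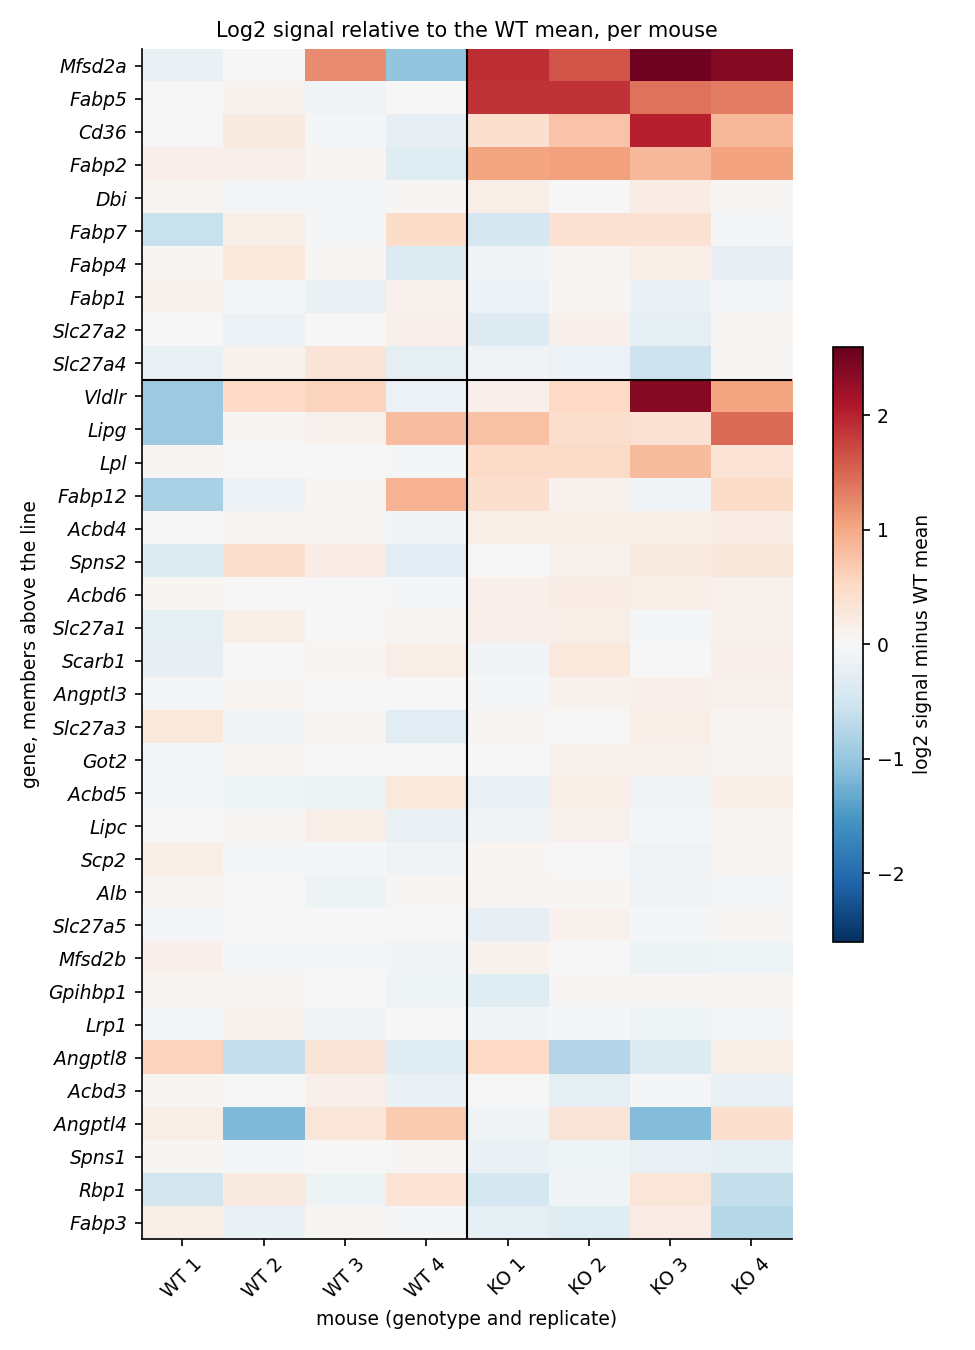
Log2 signal minus the WT mean of the gene (color) for each mouse (columns) and for the brightest probe of the 10 genes (above the horizontal line) and of 26 other uptake and binding genes (below it), each set ordered by log2 fold change. KO replicate 3 has the deepest red in *Cd36* and *Vldlr*, and the upper 4 rows are red in all 4 KO mice.

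Other gene lists were read for the setting in which these genes moved. Of 30 target genes of PPARα, the nuclear receptor that drives fatty acid oxidation, 0 were called by limma or by an unpaired t test, 2 were called higher with the replicate number as a block, and 9 had an unadjusted limma p under 0.05 (14% of all genes did). Their median log2 fold change was 0.11. *Acot3*, an acyl-CoA thioesterase gene, had the largest change among them, from -1.80 to -0.76 in WT and from -0.54 to 0.80 in KO liver. The groups did not overlap, and its log2 fold change of 1.29 (SE 0.38) had a limma adjusted p of 0.201, just outside the threshold. Of 10 tested PPARγ and lipid storage genes known from fatty liver, 0 were called by limma or the t test and 1 (*Mogat1*, 0.48) had an unadjusted limma p under 0.05, and 1 was called lower without WT replicate 4. Of 20 genes of transcription factors and coactivators known to act on uptake and binding genes, 1 was called (1.01% of all genes were called higher and 0.754% lower), and 4 had an unadjusted limma p under 0.05, beside 14% of all genes. This was *Srebf1*, which encodes SREBP1, with 6.08, 6.72, 6.63 and 6.14 in WT liver, against 6.89, 6.87, 7.42 and 7.47 in KO liver. KO replicates 3 and 4 were the highest, and the log2 fold change was 0.77 (SE 0.20, limma adjusted p = 0.168). With KO replicate 1, 2 or 3 or WT replicate 1, 2 or 3 left out, 0 of the 20 were called, and 0 were called by an unpaired t test, with no filter on dim probes, at an adjusted p under 0.05 or at a fold change over 2, while 2 were called higher at an unadjusted p under 0.2. The genes of the receptors themselves were not called, *Ppara* having a log2 change of -0.09 and *Pparg* of 0.30 (limma adjusted p = 0.845 and 0.559). Among the 20, the KO mice lay wholly above the WT mice in 1 (*Srebf1*) and wholly below in 1 (*Rxra*). Of all genes, 3.84% and 5.89% were separated in these directions. *Rxra*, which was not called, ranged from 8.08 to 8.20 in WT and from 7.90 to 8.07 in KO liver.

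Whole liver holds several cell types, and in such samples more cells of a type and more RNA per cell cannot be told apart. All 10 hepatocyte markers were well above background on all 8 arrays, and the sum of their linear signals, in units of the 75th percentile, was 5305 to 5644 in WT and 5310 to 5384 in KO liver (brightest probe, *Alb*). Of 8 intestinal epithelium markers, which bear on *Fabp2*, 1 was well above background on all 8 arrays. Another 6 (*Cdx1*, *Cdx2*, *Alpi*, *Sis*, *Lct* and *Muc2*) were above background on 0 arrays. The sum was 2.82 to 4.83 in WT and 3.03 to 3.62 in KO liver (brightest probe, *Lgals4*). Of 8 adipocyte markers, which bear on *Cd36*, *Fabp4* and *Lpl*, 4 were well above background on all 8 arrays. *Adipoq*, *Plin1* and *Retn* were above background on 0 arrays. The sum was 480 to 498 in WT and 396 to 496 in KO liver (brightest probe, *Car3*, which hepatocytes also express). *Car3* alone made up 457 of that sum on average, so that it says little about adipocytes, and every such sum is weighted toward its brightest probes.

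All 12 endothelial markers, which bear on *Mfsd2a* and *Cd36*, were well above background on all 8 arrays. Their sum was 115 to 118 in WT and 105 to 124 in KO liver (brightest probe, *Clec4g*). KO replicate 1 gave the 105, while the other KO mice lay between 120 and 124, above all WT mice. All 12 markers of Kupffer cells and macrophages, which bear on *Cd36*, *Fabp4* and *Fabp5*, were above background on all 8 arrays too, with a sum of 113 to 185 in WT and 95.8 to 157 in KO liver (brightest probe, *Cd5l*). Of these 12, *Marco*, a scavenger receptor gene of macrophages, was called lower, from 2.49, 2.87, 3.52 and 3.20 in the WT mice to 1.33, 1.77, 2.25 and 1.84 in the KO mice. Its groups did not overlap, and its log2 fold change was -1.22 (SE 0.25, limma adjusted p = 0.0983), where 0.754% of all genes were called lower and 5.89% were separated downward. The other 11 were not called, and the part of *Marco* in the results above was not tested. In all 9 marker lists summed, including those of stellate cells (brightest probe, *Dcn*, 101 to 135 in WT and 98.5 to 105 in KO liver), cholangiocytes (*Spp1*), lymphocytes (*Cd4*) and neural cells (*Snap25*), the genotypes overlapped.

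The genes whose log2 signals followed those of a named gene most closely were ranked by Pearson's r over the 8 arrays among 13563 other genes well above background on all of them. These values are descriptions, since both genotypes enter and any pair of genes that differ between them correlate. For *Fabp5* they were *1810008I18Rik* (0.979), *Dock6* (0.975) and *Pnpla5* (0.973). For *Fabp2* they were *Acbd4* (0.972), *Thrsp* (0.971) and *Aqp8* (0.968). For *Cd36* they were *Slc17a4* (0.993), *Hat1* (0.982) and *Fmo1* (0.971). For *Mfsd2a* they were *Cds2* (0.953), *0610009L18Rik* (0.952) and *Pofut1* (0.950). *Cd36* itself read 1.98 in KO replicate 3 and at most 0.82 in the other mice. How far KO replicate 3 sets the r values of *Cd36* was not tested. Of the genes in these lists, *Pnpla5*, *Thrsp*, *1810008I18Rik* and *Aqp8* had log2 fold changes of 3.06, 2.00, 1.01 and 0.97, while *Cds2*, *Pofut1*, *Hat1* and *Acbd4* had 0.20, 0.18, 0.23 and 0.18. Of the 3 genes most like *Fabp5* and the 3 most like *Fabp2*, all but *Acbd4* had log2 fold changes of 0.63 (*Dock6*) or more, while those most like *Mfsd2a* and *Cd36* reached at most 0.39 (*0610009L18Rik*).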

How the data were processed

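Liver RNA of 4 *Agpat3* WT and 4 *Agpat3* KO mice was measured on 8 one-color arrays whose design names mouse build mm9. Per the file headers, the authors deposited fluorescence intensity from Agilent Feature Extraction 10.7.1.1, and a table of log2 values that equals log2 of the processed signal minus each array's 75th percentile to within 0.0085.

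Control and outlier spots were left out, spots of a probe were averaged, and log2 intensity was set relative to the 75th percentile over probes (261 to 309 intensity units, with a median local background of 27 to 32). Probes were named through RefSeq accessions in a table of GRCm38.p6, which named 32994 of 56605. This table was used for names and neighbors and gave no gene coordinates. A gene was read at its brightest probe. The 10 genes had 13 probes, and 9 of the genes had every probe tested.

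Probes that passed background on every array of a genotype were compared with lmFit and eBayes (limma 3.58.1, R 4.3.3, two-sided). Whether the p in the legend with these thresholds was adjusted is not given there. Nothing says whether the livers were handled in separate sets, so p-values measure the spread between these mice. The genes, lists, tests and alternatives were chosen with earlier results of these data known. Named were the 10 genes, *Agpat3*, the related locus *Fabp5l2*, called members of the lists and genes of the uptake and binding list. Also named were the marker with the brightest probe for each cell type and the 3 genes most like each of 4. Intestinal and adipocyte markers above background on 0 arrays were named too. *Acot3*, *Mogat1*, *Ppara*, *Pparg* and *Rxra* were named after their values were seen. Some genes of the lists are not reported here. Replicate numbers were not taken as pairs, because 1 of the 4 same-number correlations was below 0.1. The median local background fell from replicate 1 to replicate 4 in both genotypes, from 32 to 27 in WT and from 31 to 27 in KO. Whether mice with the same number share a position or handling effect was not tested. The test was tried on simulated data. Figures were drawn with matplotlib 3.10.9.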

Additional observations from a re-analysis of the deposited data

Results flagged for a closer look

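*Gpihbp1*, which encodes the endothelial anchor of lipoprotein lipase, had a log2 signal of 3.40 in KO replicate 1, while the other 3 KO mice lay between 3.75 and 3.76. The gap was large for the range of that group. It was the only such case among 78 groups of 4 mice examined for *Agpat3*, the genes of fatty acid uptake and binding, *Srebf1* and *Marco*, where chance gives about 1 in 20.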

How the results depend on the processing

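Of 230 alternative values for the 10 genes, 223 kept the direction and the side of the thresholds, or changed sign while uncalled, and 0 called values reversed. The call of *Mfsd2a* was lost with no filter on dim probes (2.11, limma adjusted p = 0.227) and at an adjusted p under 0.05 (2.11, limma adjusted p = 0.0973), and its values ran from 1.77 to 2.52 with 1 array left out. *Cd36* was called under normexp correction on the median spot signal (0.94) and at an unadjusted p under 0.2 (1.01). Its values ran from 0.68 to 1.21 with 1 array left out. The normexp setting changed both the spot signal and the background method. *Fabp2* was lost at a fold change over 2 (0.99). Other uptake and binding genes called higher numbered 0, and 1 with probes averaged, 1 with no minimum fold change, 2 with an unadjusted p, and 0 to 1 with 1 array left out. Probes called higher (273) numbered 180 under normexp on the median spot signal, 122 with no filter and 165 with an unpaired t test. They numbered 82 at an adjusted p under 0.05, 557 with no minimum fold change, 534 with an unadjusted p and 100 at a fold change over 2. With 1 array left out they numbered 152 to 334. Probes called lower (211) numbered 65, 131, 103, 35, 645, 451 and 60 under the same settings, 126 with probes above background on all 8 arrays, and 98 to 276 with 1 array left out. Correlations of deviations between mice with the same number were 0.33, -0.11, 0.10 and 0.32, so the numbers were not taken as pairs. The replicate block changed no call among the 10 genes (limma adjusted p = 0.115 for *Mfsd2a*, 0.221 for *Cd36*, 0.0688 for *Fabp2* and 0.0250 for *Fabp5*). Among PPARα target genes, 0 were called higher in the test described above, 5 at an unadjusted p under 0.2 and 2 with the block. Normexp on the median spot signal, quantile normalization, eBayes with trend and robust options and no minimum fold change each called 1. With 1 array left out, 0 to 2 were called. For dim probes the signal over background limits what can be seen, and the 7 uptake and binding genes under the filter have no tested change. Causes of these shifts were not tested.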
